A study of Mus musculus with 24 samples.

Results

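Messenger RNAs bound to heavy polysomes in the nucleus accumbens (Acb) were compared between rpS6P-/- knockin mice and their wild-type littermates. The comparison rested on 6 of the 24 libraries of the series, 3 of each genotype, chosen by the region, genotype and fraction in the sample labels. In the knockin, every phosphorylation site of ribosomal protein S6 (rpS6) carries an alanine in place of the serine, in all cells of the animal. Both genotypes shared a mixed C57Bl/6/Sv129/ICR background, included males and females, received no treatment that the labels name, and were of an age not given in the sources used here. Each library came from tissue of several pooled mice, so a library is a pool and not an animal. The heavy polysomal fraction held mRNAs with more than 4 ribosomes, collected from a sucrose density gradient. The 6 whole lysate libraries of the Acb and the 6 heavy polysomal libraries of the dorsal striatum (DS), of the same genotypes, were used beside them.

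A polysome is a single mRNA with several ribosomes translating it at once, and sedimentation separates mRNAs by how many ribosomes they carry. The coding sequence bounds how many ribosomes fit on an mRNA. The small ribosomal subunit protein rpS6 is phosphorylated by S6 kinases downstream of mTOR and by other kinases, and its phosphorylation is widely read as a sign of neuronal activity. Most neurons of the Acb are GABAergic medium spiny neurons that express dopamine D1 or D2 receptors, and the dissected tissue also holds interneurons, oligodendrocytes, astrocytes, microglia and vessels. Because RNA was extracted from whole tissue, fewer cells of a type and less RNA per cell cannot be told apart.

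The 6 libraries held 14948045 to 34703044 reads assigned to genes. Rps6, the targeted gene, was at 394, 439 and 346 CPM (reads scaled to the library size with the TMM factors of edgeR) in the wild-type and at 435, 427 and 382 CPM in the knockin; the mutation replaces codons, so the level of its mRNA does not check the labels. Ppp1r1b, Drd1a, Drd2, Penk and Pdyn, which define medium spiny neurons, were present in every library, and the summed CPM of the 36 medium spiny neuron genes ran from 13602 to 14993 in the wild-type and from 13661 to 16179 in the knockin. The 20 markers of cortical excitatory neurons summed to between 1192 and 1426 CPM in the wild-type libraries and to between 1545 and 1885 CPM in the knockin libraries, without overlap. The part of neighbouring cortex in the results below was not tested.

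Of 24079 genes in the table, 16227 had enough reads to be tested. None passed an adjusted p of 0.05 in edgeR's quasi-likelihood test (0% called; the smallest adjusted p was 0.0898), 3518 had an unadjusted p under 0.05 (21.7%), and DESeq2 called 1090. No gene below is therefore called changed in the main test: adjusted p-values are those of edgeR unless DESeq2 is named, errors are standard errors of the log2 fold change, and counts of genes as lower or higher refer to an unadjusted p under 0.05. Where the values of all 6 libraries are printed, wild-type before knockin and replicates 1 to 3 in order, the genotypes did not overlap unless an overlap is stated; for Rps6, above, they overlapped. Of the 16227 genes, 1862 were lower in the knockin at an unadjusted p under 0.05 (11.5%) and 1656 were higher (10.2%). DESeq2, which gave an adjusted p to 7733 genes, called 529 lower (6.84%) and 561 higher (7.25%). The 3 knockin libraries were all below the 3 wild-type libraries for 1920 genes (11.8%) and all above them for 2140 (13.2%). Genes were described through 41 lists in 5 classes (neuronal, glial, cytoskeletal, secretory and nuclear), which held 1391 distinct tested genes and no mitochondrial or ribosomal protein family.

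Over these 1391 genes the median log2 fold change (knockin minus wild-type) was 0.12, against -0.01 over all genes tested. In the lists 212 genes were lower and 266 higher at an unadjusted p under 0.05. The nuclear class held 76 lower and 84 higher genes of 386, the secretory class 56 and 55 of 287, the cytoskeletal class 27 and 57 of 223, the neuronal class 24 and 52 of 333, and the glial class 30 and 21 of 172. The glial class also held endothelial, mural, choroid plexus and ependymal genes. Differences of both signs stood side by side within each class. After a smooth trend on coding length was removed from the libraries, as described below, 75 listed genes were lower and 227 higher, against 7.3% and 9.11% of all genes.

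Coding length ordered these differences. Coding length here is that of 1 annotated transcript per gene, and shorter isoforms of the same gene were not counted apart. Of the 241 listed genes with a coding sequence of up to 600 nucleotides, 229 had a log2 fold change below 0, 159 were lower at an unadjusted p under 0.05, 2 were higher, and the median was -0.55. Among the 667 listed genes over 1500 nucleotides, 524 had a log2 fold change above 0, 148 were higher at that p, 12 were lower, and the median was 0.23. All genes tested gave the same picture. Of the 1884 genes of up to 600 nucleotides, 1723 had a log2 fold change below 0. Their median was -0.53, with 935 lower and 6 higher. Of the 6851 genes over 1500 nucleotides, 4666 had a log2 fold change above 0. Their median was 0.17, with 141 lower and 977 higher.

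**Figure D1:**
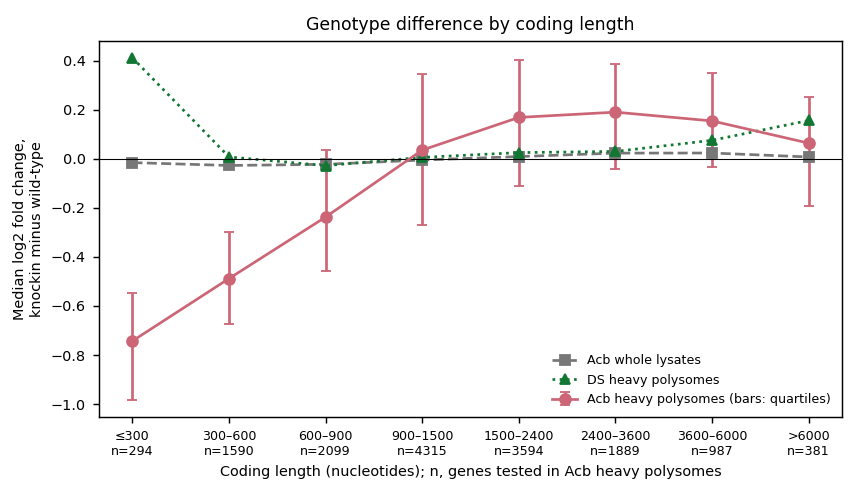
Median log2 fold change (knockin minus wild-type, y axis) of genes grouped by coding length in nucleotides (x axis), for Acb heavy polysomes (circles, with bars from the lower to the upper quartile of genes), Acb whole lysates (squares) and DS heavy polysomes (triangles). In Acb heavy polysomes the median ran from -0.74 for the shortest group to 0.19 for 2400 to 3600 nucleotides and was 0.06 above 6000, while in whole lysates every group lay between -0.03 and 0.02.

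The relation was not linear over the whole range. The median log2 fold change was -0.74 up to 300 nucleotides, -0.49 from 300 to 600, -0.24 from 600 to 900 and 0.04 from 900 to 1500, then stayed between 0.15 and 0.19 up to 6000 nucleotides and was 0.06 above that. Across 15149 genes with a coding length, Spearman's rho between length and fold change was 0.41 in Acb heavy polysomes, 0.06 in Acb whole lysates (14332 genes) and 0.03 in DS heavy polysomes (14527 genes). These coefficients describe genes measured in the same libraries, and genes are not independent replicates. In DS heavy polysomes the shortest group went the other way, with a median of 0.41.

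Each library had its own balance of long and short coding sequences. After each gene was centred on its mean over the 6 libraries, genes over 3600 nucleotides stood relative to genes of up to 600 nucleotides at -0.52, -0.21 and -0.28 (log2 CPM) in wild-type replicates 1, 2 and 3 and at 0.06, 0.16 and 0.82 in knockin replicates 1, 2 and 3. The genotypes did not overlap, and wild-type replicate 1 and knockin replicate 3 lay at the ends. The same value ran from -0.24 to 0.18 in the wild-type and from -0.09 to 0.07 in the knockin in Acb whole lysates, and from -0.31 to 0.39 and from -0.29 to 0.29 in DS heavy polysomes, where the genotypes overlapped. Without wild-type replicate 1 and knockin replicate 3, 968 genes had an unadjusted p under 0.05 in place of 3518, and the listed genes gave 65 lower and 67 higher in place of 212 and 266, against 2.99% and 3.18% of all genes. Fewer libraries of each genotype remain then, which by itself can lower such counts. Both libraries were picked after the data were seen, for lying at the ends of this balance. Beside lists, and beside genes whose difference it shifts most, values are also given after a smooth trend on coding length was removed from the libraries (called length-adjusted) or without these libraries (called the libraries at both ends).

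**Figure D2:**
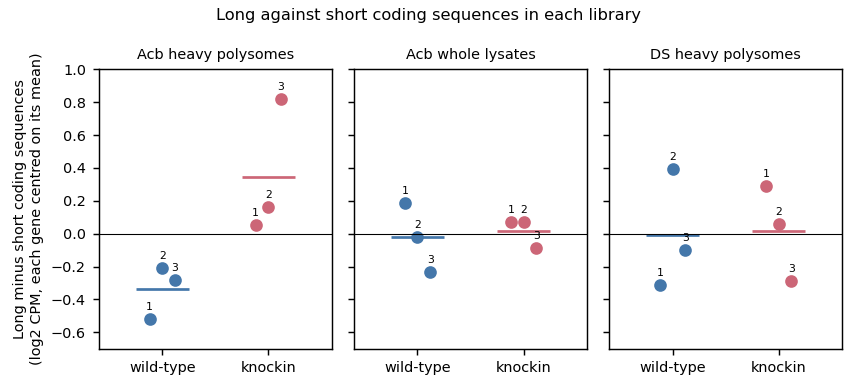
Level of genes with coding sequences over 3600 nucleotides minus that of genes with up to 600 nucleotides (y axis, log2 CPM, median over genes centred on their own mean) in each library, numbered by replicate, with bars at the group means. In Acb heavy polysomes the wild-type libraries lay between -0.52 and -0.21 and the knockin libraries between 0.06 and 0.82, and in the other panels the genotypes overlapped.

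The shortest members show how little coding sequence some of these mRNAs have. The coding sequences of 4 genes that were lower in the knockin are printed from the GENCODE M21 annotation of GRCm38, 5′ to 3′, with the start and stop codons in capitals. Sec61g encodes the gamma subunit of the Sec61 channel that takes secretory proteins into the endoplasmic reticulum (chr11:16501638-16508484, minus strand, 207 nucleotides). Polr2k encodes the smallest subunit of the RNA polymerases (chr15:36174010-36177012, plus strand, 177 nucleotides). Pcp4 encodes a small calmodulin-binding protein abundant in striatal neurons (chr16:96467606-96525793, plus strand, 189 nucleotides). Tmsb10 encodes thymosin beta 10, which binds actin monomers (chr6:72957347-72958748, minus strand, 135 nucleotides). The coordinates span the whole gene, introns included.
Sec61g: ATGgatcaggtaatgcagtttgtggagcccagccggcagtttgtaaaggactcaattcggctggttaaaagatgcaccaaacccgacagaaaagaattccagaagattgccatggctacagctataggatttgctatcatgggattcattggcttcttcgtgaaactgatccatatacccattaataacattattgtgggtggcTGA
Polr2k: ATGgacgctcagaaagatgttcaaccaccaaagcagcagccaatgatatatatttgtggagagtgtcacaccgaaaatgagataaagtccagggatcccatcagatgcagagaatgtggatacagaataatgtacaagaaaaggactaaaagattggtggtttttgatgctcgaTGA
Pcp4: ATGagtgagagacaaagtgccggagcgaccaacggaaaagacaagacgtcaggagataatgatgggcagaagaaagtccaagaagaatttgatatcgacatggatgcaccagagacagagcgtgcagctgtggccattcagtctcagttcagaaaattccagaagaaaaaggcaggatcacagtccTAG
Tmsb10: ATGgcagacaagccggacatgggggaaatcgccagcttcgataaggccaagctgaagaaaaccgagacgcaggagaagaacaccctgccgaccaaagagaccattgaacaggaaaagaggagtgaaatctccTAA

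**Figure D3:**
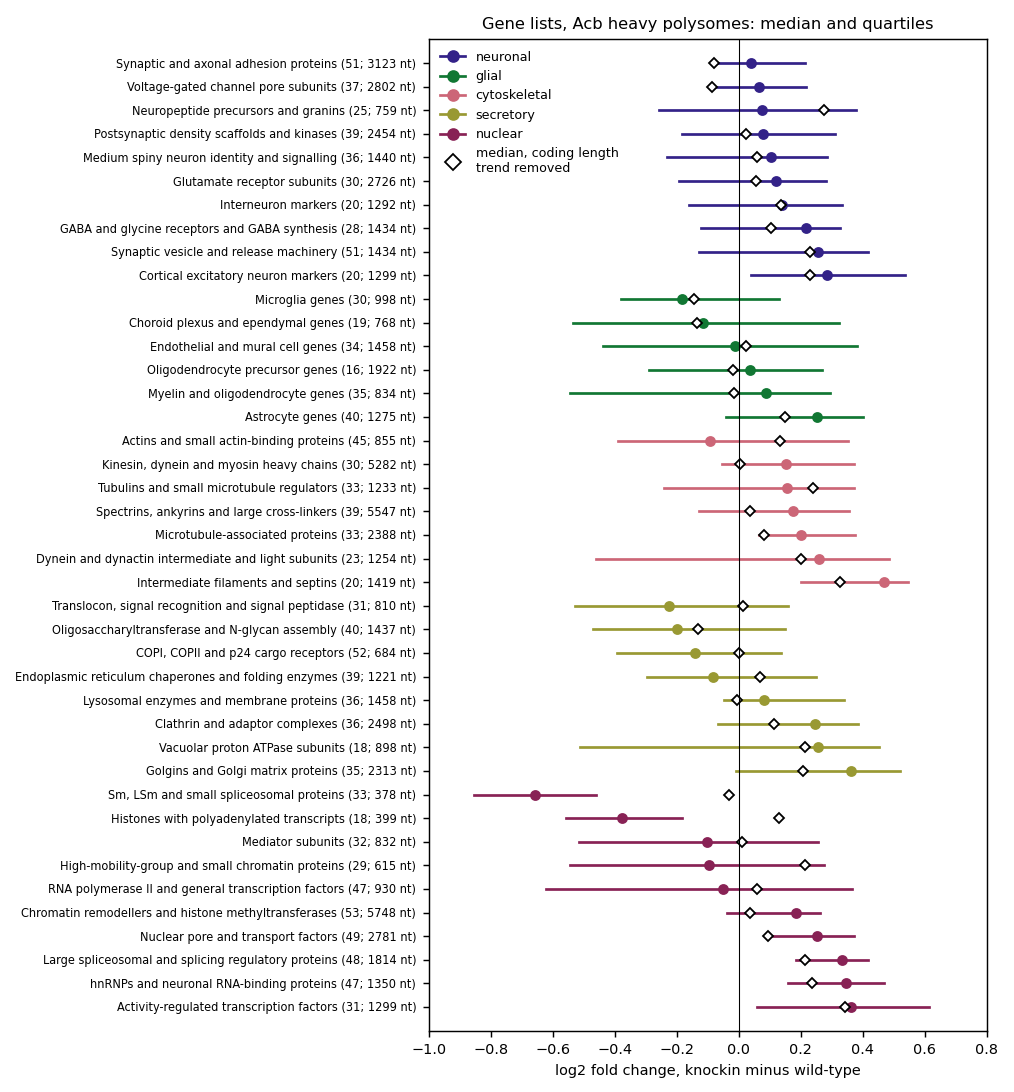
Log2 fold change (knockin minus wild-type, x axis) in Acb heavy polysomes for the 41 gene lists, grouped and coloured by class; circles are medians, bars run between the quartiles of the members, open diamonds are medians after the coding length trend was removed, and brackets give the number of genes tested and their median coding length. The small spliceosomal proteins had the lowest median, -0.66, which was -0.03 after removal of the trend, and intermediate filaments and septins the highest, 0.47, which was 0.33 after it.

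Of 51 genes for vesicle proteins and transmitter release, 19 were higher and 3 lower at an unadjusted p under 0.05, DESeq2 called 8 higher and 0 lower of 48, and the median was 0.26 (0.23 after the coding length trend was removed). The level of the list in the wild-type libraries lay between -0.14 and -0.09 (median of centred log2 CPM) and in the knockin libraries between 0.03 and 0.20. At the same p, 1 was lower and 16 higher length-adjusted. Without the libraries at both ends 6 genes of this list were higher and 0 lower. The corresponding medians were 0.04 in Acb whole lysates and -0.06 in DS heavy polysomes.

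Syn2, a synapsin that tethers vesicles in the reserve pool (1761 nucleotides), was at 280.1, 339.6 and 297 CPM in the wild-type and at 416, 401 and 570.3 CPM in the knockin (log2 fold change 0.60 ± 0.17 SE, adjusted p = 0.11). The 3 knockin libraries were above every wild-type library, and the difference was 0.36 without the libraries at both ends. Vamp2, the vesicle partner of the fusion complex and a short member (351 nucleotides), was at 1839, 1081 and 1698 CPM in the wild-type and at 1218, 1120 and 812 CPM in the knockin (-0.55, adjusted p = 0.14). Wild-type replicate 2 lay within the knockin range for Vamp2, and its difference was 0.09 once the length trend was removed.

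Of the 36 medium spiny neuron genes, 7 were higher and 2 lower at an unadjusted p under 0.05, with a median of 0.10, and 0 in either direction without the libraries at both ends. Length-adjusted, 3 were lower and 4 higher. Drd1a, the D1 receptor, was at 243, 283 and 300 CPM in the wild-type and at 285, 329 and 298 CPM in the knockin, and Drd2, the D2 receptor, was at 103, 62.6 and 69.7 against 65.1, 68.1 and 54.6 CPM, so that both overlapped between genotypes. Pde10a, the striatal phosphodiesterase that degrades cAMP and cGMP (2391 nucleotides), was higher, at 490, 535 and 515 against 647, 646 and 819 CPM (0.46 ± 0.15, adjusted p = 0.13, and 0.28 length-adjusted). Pde1b, a calmodulin-dependent phosphodiesterase, differed by 0.47 (adjusted p = 0.14) and by 0.22 without the libraries at both ends.

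Arpp21, a cAMP-regulated phosphoprotein of striatal neurons, was lower although the transcript used here has a coding sequence of 2424 nucleotides. It was at 2579, 1559 and 1777 CPM in the wild-type and at 1538, 1315 and 1065 CPM in the knockin (-0.59 ± 0.19, adjusted p = 0.12; -0.76 after removal of the length trend). The genotypes did not overlap, although wild-type replicate 2 and knockin replicate 1 lay close, and the difference was -0.22 without the libraries at both ends. In whole lysates the difference was 0.09, and in DS heavy polysomes 0.41. The length-adjusted value rests on that 1 transcript, and shorter isoforms of Arpp21 were not counted apart.

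Of 25 neuropeptide precursors and granins, 4 were higher and 2 lower. Length-adjusted, 5 were higher and 0 lower, and without the libraries at both ends 1 was higher and 1 lower. The opioid precursor Penk was at 1485, 2410 and 1404 CPM in the wild-type and at 1999, 1690 and 2290 CPM in the knockin, with overlapping genotypes, while Pdyn, the dynorphin precursor, was at 233, 394 and 251 against 404, 393 and 518 CPM (0.58, adjusted p = 0.13, and 0.79 length-adjusted), with wild-type replicate 2 just above knockin replicate 2, so that the genotypes overlapped. Dbi, the diazepam binding inhibitor (264 nucleotides), was lower, at 531, 308 and 519 against 316, 271 and 144 CPM (-0.89 ± 0.25, adjusted p = 0.11; -0.14 after removal of the trend), with knockin replicate 1 above wild-type replicate 2. Vip, the vasoactive intestinal peptide precursor of some interneurons, was a short member (516 nucleotides) that was higher at a low level, at 7.71, 5.62 and 4.99 against 9.33, 10.8 and 9.12 CPM (0.68, adjusted p = 0.15, and 1.11 length-adjusted).

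Of 30 glutamate receptor genes 1 was higher and 1 lower at an unadjusted p under 0.05, while 1 was higher and 5 lower length-adjusted. Grm5, the metabotropic receptor mGluR5 (3516 nucleotides), was at 220, 263 and 232 CPM in the wild-type and at 280, 344 and 398 CPM in the knockin (0.51, adjusted p = 0.12, and 0.34 length-adjusted), and Cacng2, the AMPA receptor auxiliary protein stargazin (972 nucleotides), differed by -0.43 (adjusted p = 0.18). Gria1, an AMPA receptor subunit, differed by 0.24 ± 0.15 (adjusted p = 0.37, and 0.06 length-adjusted). Of 37 pore subunits of voltage-gated channels, 1 was higher and 1 lower, and the lower was Cacna1e, a calcium channel of 6822 nucleotides, at 110, 89.7 and 107 against 79.9, 86.1 and 71.5 CPM (-0.37, adjusted p = 0.20). Of 51 adhesion proteins 2 were higher and 2 lower (1 and 5 length-adjusted), among them Cadm1 (0.44, adjusted p = 0.17) and Cntnap2, the contactin-associated protein of 3999 nucleotides (-0.45, adjusted p = 0.18).

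Of 28 genes for GABA and glycine receptors and GABA synthesis, 5 were higher and 4 lower. Length-adjusted, 1 was higher and 3 lower, and without the libraries at both ends 1 and 1. The list also holds Gabarap and its relatives Gabarapl1 and Gabarapl2. Its 3 members of up to 600 nucleotides, Gabarap among them, were all among the 4 lower genes (median -0.66). Gabarap, a small ubiquitin-like protein that binds GABA-A receptors and autophagosomes (354 nucleotides), was at 358, 253 and 336 CPM in the wild-type and at 224, 219 and 146 CPM in the knockin (-0.69 ± 0.19, adjusted p = 0.11; -0.06 after removal of the length trend). Abat, the transaminase that degrades GABA (1503 nucleotides), was at 281, 348 and 314 against 408, 457 and 575 CPM (0.61 ± 0.17, adjusted p = 0.11), and Gphn, the scaffold gephyrin, differed by 0.49 (adjusted p = 0.13, and 0.31 length-adjusted). In the list of postsynaptic scaffolds and kinases 7 of 39 were higher and 7 lower. Length-adjusted, 7 were higher and 4 lower, and without the libraries at both ends 0 and 1. Pcp4, whose coding sequence is printed above, was at 995, 528 and 463 CPM in the wild-type and at 430, 259 and 215 CPM in the knockin (-1.14 ± 0.27, adjusted p = 0.098). Its difference was -0.05 in whole lysates, 0.85 in DS heavy polysomes, and -0.16 in Acb heavy polysomes after the length trend was removed. Camk2a, the alpha subunit of the calcium and calmodulin-dependent kinase II (1437 nucleotides), was at 542, 640 and 588 against 753, 789 and 1176 CPM (0.62, adjusted p = 0.11), and Dlg3, the scaffold SAP102, differed by 0.56 (adjusted p = 0.12).

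Of the 20 cortical excitatory markers 5 were higher and 1 lower, with a median of 0.28 (0.23 length-adjusted, with 4 higher and 0 lower; 0.34 without the libraries at both ends, with 3 and 0). Mef2c, an activity-dependent transcription factor also expressed in the striatum, was at 138, 133 and 121 CPM in the wild-type and at 159, 221 and 255 CPM in the knockin (0.70 ± 0.18, adjusted p = 0.10). Nptx1, a neuronal pentraxin, differed by 0.66 (adjusted p = 0.12) with overlapping genotypes. Slc17a7, the vesicular glutamate transporter VGLUT1 that marks cortical neurons, was at 182, 71.7 and 58.4 against 131, 81.1 and 132 CPM (0.14 ± 0.31, adjusted p = 0.85; the genotypes overlapped), and wild-type replicate 1 was the highest of the 6 libraries. Nrn1, a short member (429 nucleotides), was lower on average (-0.57, adjusted p = 0.22, and -0.04 length-adjusted), with 56.7 CPM in wild-type replicate 1 and 18.3 to 31.2 CPM in the others, which overlapped.

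Of 35 myelin and oligodendrocyte genes 12 were lower and 5 higher at an unadjusted p under 0.05. DESeq2 called 7 lower and 2 higher of 32. The 9 members of up to 600 nucleotides were all below 0, against 1723 of 1884 over all genes tested. The 8 over 1500 nucleotides were all above 0, against 4666 of 6851. Length-adjusted, 4 genes were lower and 5 higher, and without the libraries at both ends 8 and 2. Mobp, the myelin-associated oligodendrocyte basic protein (513 nucleotides), was at 174, 151 and 124 CPM in the wild-type and at 99.1, 78.4 and 56.0 CPM in the knockin (-0.95 ± 0.20, adjusted p = 0.098). The difference was -0.55 after the length trend was removed (adjusted p = 0.12) and -0.63 without the libraries at both ends. Mbp, the myelin basic protein (588 nucleotides), was at 1332, 1402 and 1442 against 1193, 952 and 683 CPM (-0.56, adjusted p = 0.12, and -0.24 length-adjusted). Cnp, the phosphodiesterase of myelin (1263 nucleotides), was at 249, 392 and 274 against 407, 384 and 557 CPM (0.56, adjusted p = 0.13; wild-type replicate 2 lay above knockin replicate 2), and Ndrg1, another oligodendrocyte gene (1185 nucleotides), differed by 0.60 (adjusted p = 0.11). The summed CPM of the list overlapped between genotypes, from 8359 to 10120 in the wild-type and from 8122 to 8961 in the knockin.

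Astrocyte genes gave 10 higher and 5 lower of 40, 10 and 1 length-adjusted, and 1 and 0 without the libraries at both ends. Aldoc, the brain aldolase (1092 nucleotides), was at 499, 718 and 496 CPM in the wild-type and at 856, 759 and 928 CPM in the knockin (0.57 ± 0.17, adjusted p = 0.11). Glul, glutamine synthetase (1122 nucleotides), differed by 0.49 (adjusted p = 0.14), with wild-type replicate 2 within the knockin range. Mt3, the brain metallothionein (207 nucleotides), was at 231, 128 and 103 against 121, 62.5 and 41.9 CPM (-1.04 ± 0.32, adjusted p = 0.12; -0.18 after removal of the trend), with knockin replicate 1 above wild-type replicate 3. Gfap differed by 0.28 (adjusted p = 0.45).

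Microglial genes had a median of -0.18 in Acb heavy polysomes, -0.15 in whole lysates and 0.39 in DS heavy polysomes, with 4 lower and 1 higher of 30 in the first (0 and 1 length-adjusted, and 3 and 0 without the libraries at both ends). Ly86, which partners a Toll-like receptor homologue (489 nucleotides), was at 20.7, 21.9 and 19.0 CPM in the wild-type and at 11.8, 10.8 and 11.0 CPM in the knockin (-0.87 ± 0.20, adjusted p = 0.098, and -0.42 length-adjusted), and the difference was -0.85 without the libraries at both ends. B2m, the light chain of class I major histocompatibility molecules (360 nucleotides), was at 81.0, 66.7 and 94.1 against 44.3, 55.7 and 35.0 CPM (-0.84, adjusted p = 0.098, and -0.22 length-adjusted). Lgmn, a lysosomal protease of 1308 nucleotides, was higher (0.52, adjusted p = 0.18), and the microglial receptor Cx3cr1 differed by 0.05 (adjusted p = 0.89). The summed CPM of the list overlapped between genotypes.

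Of 16 oligodendrocyte precursor genes 3 were lower and 1 higher (2 and 1 length-adjusted), among them Cacng4 (-0.59, adjusted p = 0.14) and Gpr17 (0.46, adjusted p = 0.19). Of 34 endothelial and mural genes 2 were lower and 3 higher (0 and 3 length-adjusted, and 1 and 0 without the libraries at both ends), among them Sparc, a matrix protein (0.45, adjusted p = 0.15), and Egfl7 (-0.49, adjusted p = 0.21). Ttr, the transthyretin made by the choroid plexus, had the lowest p of all 16227 genes (adjusted p = 0.090), with 23.3, 6.07 and 5.88 CPM in the wild-type and 0.968, 1.34 and 0.224 CPM in the knockin (-3.73 ± 0.57). It differed by -2.38 in whole lysates and by 1.09 in DS heavy polysomes, neither of which passed correction (the adjusted p in the DS was 0.93), and wild-type replicate 1 stood far above the other libraries. Of the 19 choroid plexus and ependymal genes, 4 were lower (1 length-adjusted) and 1 higher (Sostdc1, 0.90, adjusted p = 0.21). The 1 gene that was lower length-adjusted passed correction in that fit. Folr1, Kcne2, Aqp1 and F5, picked from this list after their values were seen, were at or near 0 in every library. The summed CPM of the list overlapped between genotypes, from 256 to 306 in the wild-type and from 245 to 259 in the knockin. The part of carried-over choroid plexus in the Ttr difference was not tested.

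Of 45 actins and small actin-binding proteins, 13 were lower and 10 higher. The 18 members of up to 600 nucleotides were all below 0 (median -0.41), against 1723 of 1884 over all genes tested. The 26 members of 600 to 1500 nucleotides had a median of 0.27. Length-adjusted, 0 were lower and 14 higher and the median of the list turned from -0.09 to 0.13, and without the libraries at both ends 1 was lower and 2 higher. Tmsb4x, thymosin beta 4, was at 1164, 601 and 410 CPM in the wild-type and at 504, 268 and 208 CPM in the knockin (-1.15 ± 0.32, adjusted p = 0.11), and Tmsb10 was at 191, 99.5 and 77.4 against 94.7, 49.0 and 47.2 CPM (-0.95 ± 0.30, adjusted p = 0.12). Both have coding sequences of 135 nucleotides, both overlapped between genotypes because knockin replicate 1 was above wild-type replicate 3, and after removal of the trend they differed by -0.02 and 0.21. DESeq2 gave them adjusted p-values of 0.15 and 0.16. Actg1, gamma actin (1128 nucleotides), was at 1028, 1311 and 980 against 1491, 1378 and 2144 CPM (0.59 ± 0.18, adjusted p = 0.11), and Actb, beta actin, differed by 0.47 (adjusted p = 0.18). Marcks, a membrane protein that cross-links actin (930 nucleotides), differed by 0.63 (adjusted p = 0.11) and by 0.71 after removal of the trend. Near-identical gene copies exist for the actins and thymosins, and how reads were shared between copies was not examined.

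Of 39 spectrins, ankyrins and cross-linkers 8 were higher and 1 lower, and 30 did not pass the unadjusted threshold. The median of 0.18 was 0.04 length-adjusted, with 6 higher and 3 lower, and without the libraries at both ends 4 were higher and 0 lower. Cyfip2, a subunit of the WAVE complex that drives actin branching (3762 nucleotides), was at 567, 595 and 633 CPM in the wild-type and at 841, 915 and 1080 CPM in the knockin (0.66 ± 0.15, adjusted p = 0.098), and Add2, the adducin that caps actin filaments, differed by 0.64 (adjusted p = 0.099). The single lower member was Macf1, the microtubule-actin cross-linker with the longest coding sequence among these named genes (22068 nucleotides), at 184, 140 and 187 against 138, 133 and 103 CPM (-0.45, adjusted p = 0.15).

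Of 33 tubulins and small microtubule regulators 4 were lower and 3 higher. Length-adjusted, 1 was lower and 5 higher, and without the libraries at both ends 2 and 1. Tbca, a tubulin folding cofactor (327 nucleotides), was at 176, 124 and 131 CPM in the wild-type and at 81.7, 78.8 and 35.9 CPM in the knockin (-1.13 ± 0.25, adjusted p = 0.098), and the difference was -0.51 after the trend was removed (adjusted p = 0.13). Pafah1b1, the dynein regulator LIS1 (1233 nucleotides), was at 605, 715 and 651 against 844, 939 and 1174 CPM (0.59, adjusted p = 0.11). Of 33 microtubule-associated proteins 9 were higher and 1 lower (6 and 3 length-adjusted, and 1 and 0 without the libraries at both ends). Clip2, a plus-end protein, differed by 0.83 (adjusted p = 0.099), Mapt, the protein tau, by 0.53 (adjusted p = 0.13) and Map4 by -0.43 (adjusted p = 0.19, and -0.60 length-adjusted). Of 30 motor heavy chains 7 were higher and none lower. Length-adjusted, 4 were higher and 2 lower and the median was 0.00 in place of 0.15, and without the libraries at both ends 6 were higher and 1 lower. Kif3b, a kinesin-2 motor of 2244 nucleotides, was at 49.8, 55.0 and 53.3 against 81.6, 90.2 and 117 CPM (0.87 ± 0.17, adjusted p = 0.098), and Kif5c, a kinesin-1 heavy chain, differed by 0.56 (adjusted p = 0.11).

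In the list of dynein and dynactin intermediate and light subunits, short and long members lay on opposite sides of 0. The list also holds Bicd1, Bicd2, Hap1, Klc1 and Klc2, which are not subunits of these complexes, and it leaves out the dynein heavy chains. All 8 members of up to 600 nucleotides were lower at an unadjusted p under 0.05 (median -0.66), against 935 of 1884 over all genes tested. All 9 over 1500 nucleotides had a log2 fold change above 0 (median 0.48), against 4666 of 6851. For 6 of these 9 the unadjusted p was under 0.05. Of all 23 members 8 were lower and 11 higher. Length-adjusted, 0 were lower and 9 higher, and without the libraries at both ends 1 was lower and 2 higher. Dynll1, the dynein light chain LC8 (270 nucleotides), was at 489, 329 and 334 CPM in the wild-type and at 296, 177 and 155 CPM in the knockin (-0.88 ± 0.22, adjusted p = 0.10, and -0.11 length-adjusted). Dctn2, dynamitin (1209 nucleotides), was at 147, 196 and 133 against 282, 227 and 341 CPM (0.84 ± 0.19, adjusted p = 0.098). Hap1, the huntingtin-associated adaptor of dynactin and kinesin (1797 nucleotides), was at 163, 249 and 244 against 402, 350 and 546 CPM (0.98 ± 0.20, adjusted p = 0.098), and was 0.83 after removal of the trend.

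Intermediate filaments and septins had no member of up to 600 nucleotides; 9 of 20 were higher and none lower, the list had the highest median of the 41, 0.47 (0.33 length-adjusted, with 7 higher and 0 lower), and without the libraries at both ends 4 were higher and 0 lower. Nefl, the light neurofilament subunit (1632 nucleotides), was at 104, 130 and 103 CPM in the wild-type and at 155, 161 and 203 CPM in the knockin (0.62 ± 0.17, adjusted p = 0.11), and the septin Sept11 differed by 0.54 (adjusted p = 0.11). The median of the list was 0.04 in whole lysates and -0.11 in DS heavy polysomes.

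**Figure D4:**
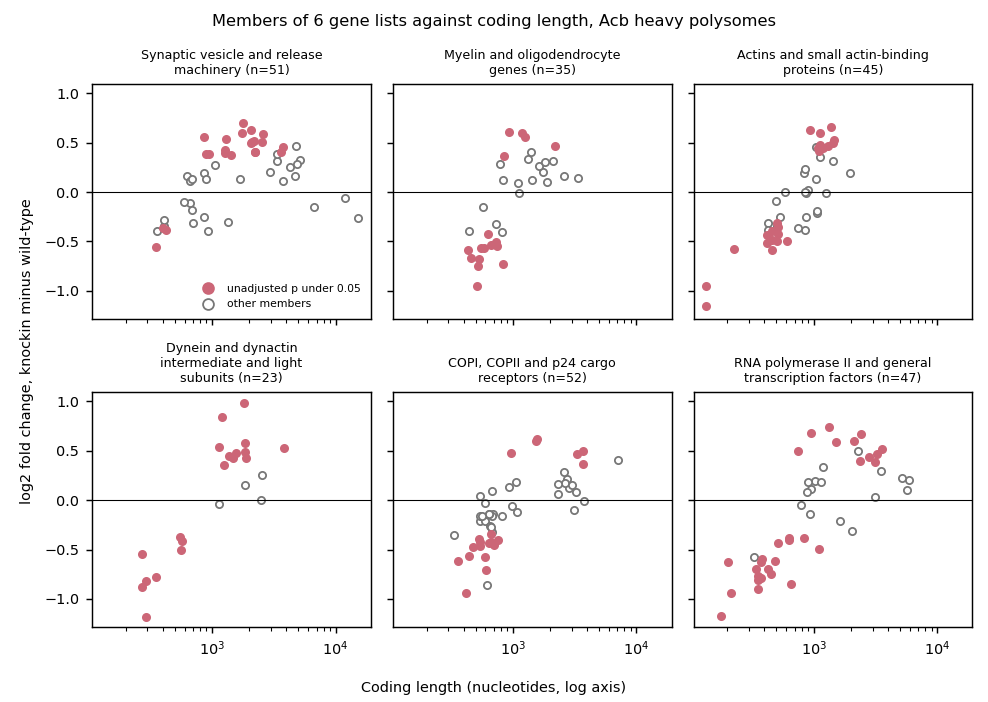
Log2 fold change (knockin minus wild-type, y axis) against coding length in nucleotides (x axis, log scale) for the members of 6 gene lists in Acb heavy polysomes; filled points had an unadjusted p under 0.05. In the dynein and dynactin list the 8 members of up to 600 nucleotides lay below 0 and the 9 over 1500 nucleotides above it. Over all genes tested these counts were 1723 of 1884 and 4666 of 6851.

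Of 31 genes for the translocon, signal recognition particle and signal peptidase 12 were lower and 5 higher. All 14 members of up to 600 nucleotides were below 0 (median -0.62), against 1723 of 1884 over all genes tested. Sec61g was at 163, 93.7 and 135 CPM in the wild-type and at 78.3, 69.5 and 36.7 CPM in the knockin (-1.09 ± 0.25, adjusted p = 0.098; -0.21 after removal of the trend), while Sec61a1, the pore subunit of the same channel (1431 nucleotides), was at 31.4, 49.9 and 32.5 against 46.5, 35.4 and 50.9 CPM (0.22 ± 0.21, adjusted p = 0.57; the genotypes overlapped). Srp14, a small protein of the signal recognition particle (333 nucleotides), differed by -0.88 (adjusted p = 0.098, and -0.26 length-adjusted). Bag6, a chaperone of tail-anchored proteins (3465 nucleotides), was at 52.9, 65.6 and 51.7 against 98.5, 70.9 and 118 CPM (0.75 ± 0.19, adjusted p = 0.10). The list had a median of -0.23, which was 0.01 after the trend was removed, with 2 lower and 6 higher, and without the libraries at both ends 6 were lower and 2 higher.

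The oligosaccharyltransferase and N-glycan genes had a median of -0.20, and 10 of 40 were lower and 2 higher (7 and 2 length-adjusted, and 1 and 0 without the libraries at both ends). Dad1, a small subunit of the transferase (342 nucleotides), was at 197, 120 and 188 CPM in the wild-type and at 117, 115 and 76.1 CPM in the knockin (-0.72, adjusted p = 0.11, and -0.07 length-adjusted), and Ostc, another small subunit (450 nucleotides), differed by -0.84 (adjusted p = 0.11, and -0.35 length-adjusted). Rpn2, ribophorin II of the same enzyme (1896 nucleotides), differed by 0.40 (adjusted p = 0.18, and 0.25 length-adjusted). The median of the list was -0.13 after removal of the length trend, and it was 0.21 in DS heavy polysomes. Among endoplasmic reticulum folding proteins 6 of 39 were lower and 3 higher (2 and 3 length-adjusted, and 3 and 0 without the libraries at both ends). Selm, a selenoprotein with a thioredoxin-like fold (438 nucleotides), was at 74.6, 63.2 and 53.5 against 42.5, 32.8 and 19.3 CPM (-1.02 ± 0.24, adjusted p = 0.098, and -0.55 length-adjusted), Fkbp2 differed by -0.65 (adjusted p = 0.11, and -0.16 length-adjusted), and P4hb, protein disulfide isomerase (1530 nucleotides), by 0.53 (adjusted p = 0.14).

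For transport between the endoplasmic reticulum and the Golgi, 14 of 52 coat and cargo receptor genes were lower and 6 higher (2 and 4 length-adjusted, and 6 and 1 without the libraries at both ends). Tmed2, a p24 cargo receptor (606 nucleotides), was at 205, 136 and 158 CPM in the wild-type and at 123, 107 and 76.6 CPM in the knockin (-0.70, adjusted p = 0.11, and -0.38 length-adjusted). Trappc2l, a tethering factor subunit (420 nucleotides), was at 98.5, 48.4 and 78.1 against 47.2, 41.0 and 29.1 CPM (-0.94 ± 0.24, adjusted p = 0.099, and -0.40 length-adjusted), and Arcn1, the delta subunit of the COPI coat (1536 nucleotides), differed by 0.60 (adjusted p = 0.11). Of 35 golgins and Golgi matrix proteins, 17 were higher and 3 lower, with a median of 0.36 that was 0.21 after the trend was removed. Length-adjusted, 11 were higher and 1 lower, and without the libraries at both ends 8 and 0. Gcc2, a golgin of 5043 nucleotides, was at 39.3, 41.0 and 38.3 against 57.2, 61.2 and 70.7 CPM (0.67 ± 0.16, adjusted p = 0.099), with a difference of 0.58 without the libraries at both ends. Cog4, of the tethering complex COG, differed by 0.61 (adjusted p = 0.11). Golph3, a lipid-binding Golgi protein of 897 nucleotides, was lower, at 175, 142 and 149 against 114, 120 and 88.9 CPM (-0.53, adjusted p = 0.12).

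Of 36 clathrin and adaptor genes 11 were higher and 4 lower. Length-adjusted, 8 were higher and 0 lower, and without the libraries at both ends 0 in either direction. Ap2s1, the small subunit of the plasma membrane adaptor AP-2 (429 nucleotides), was at 222, 150 and 212 CPM in the wild-type and at 164, 131 and 99.1 CPM in the knockin (-0.57, adjusted p = 0.13, and -0.06 length-adjusted, with knockin replicate 1 above wild-type replicate 2), while Ap2a2, a large subunit of AP-2 (2817 nucleotides), was at 93.9, 110 and 88.4 against 132, 121 and 189 CPM (0.60, adjusted p = 0.12). Snap91, a clathrin assembly protein of synapses, differed by 0.51 (adjusted p = 0.12, and 0.32 length-adjusted). Of 18 subunits of the vacuolar proton ATPase 6 were lower and 6 higher (1 and 6 length-adjusted, and 2 and 2 without the libraries at both ends). Atp6v1f (360 nucleotides) was at 218, 142 and 152 against 120, 105 and 71.1 CPM (-0.79 ± 0.21, adjusted p = 0.10, and -0.18 length-adjusted), Atp6v1b2 (1536 nucleotides) was at 465, 550 and 461 against 684, 732 and 1059 CPM (0.75 ± 0.18, adjusted p = 0.098), and Atp6v1e1 (681 nucleotides) differed by 0.58, which was 0.85 after removal of the trend. All are subunits of the cytosolic part that hydrolyses ATP. Of 36 lysosomal genes 5 were higher, Gaa (0.57, adjusted p = 0.15) and Lamp2 (0.41, adjusted p = 0.18) among them, 0 of 36 passed in either direction without the libraries at both ends, and 1 was lower, the cholesterol carrier Npc2 (450 nucleotides; -0.47, adjusted p = 0.17, and -0.01 length-adjusted).

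**Figure D5:**
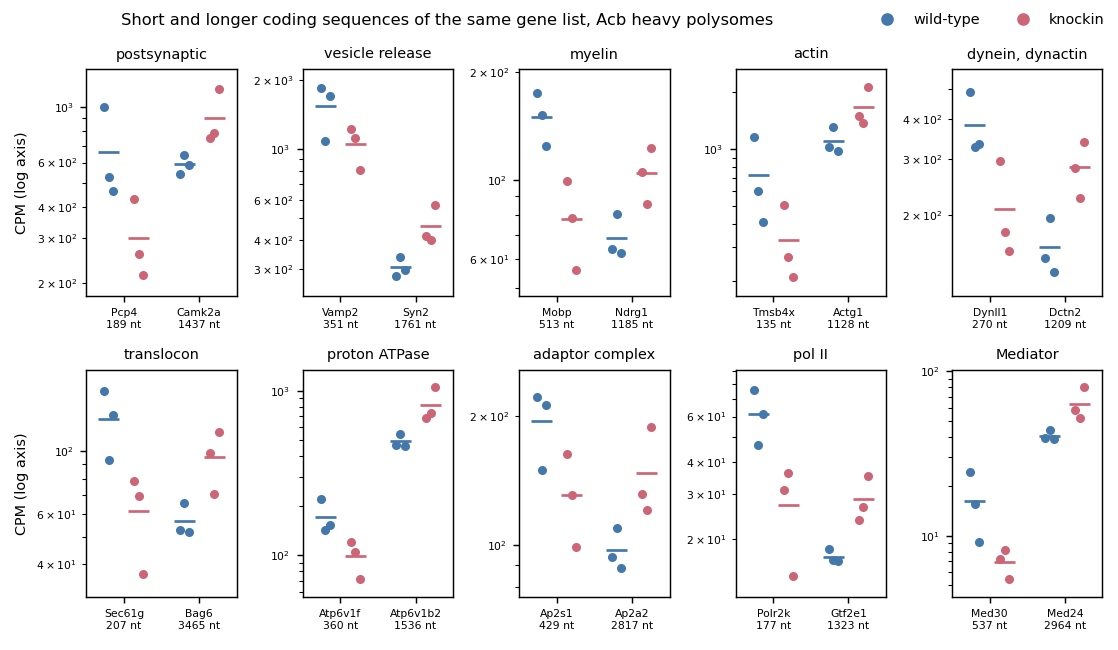
CPM (y axis, log scale) of a short and a longer member of 10 gene lists in the 3 wild-type and 3 knockin libraries of Acb heavy polysomes; points are libraries, bars are means and the coding length stands under each gene. The pairs were chosen with their values known. In every panel the mean of the shorter gene was lower in the knockin and that of the longer gene higher, for example 131 against 61.5 CPM for Sec61g and 56.7 against 95.7 CPM for Bag6.

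Of 33 Sm, LSm and other small spliceosomal proteins, which form the rings around small nuclear RNAs, 27 were lower and 2 higher at an unadjusted p under 0.05, and DESeq2 called 15 lower and 0 higher of 25. The list had a median of -0.66, a median coding length of 378 nucleotides, and a level of 0.64, 0.21 and 0.23 in the wild-type libraries against -0.06, -0.19 and -0.62 in the knockin libraries. Without the libraries at both ends its median was -0.34, with 10 genes lower and 0 higher, and after the length trend was removed it was -0.03, with 4 lower and 2 higher. In whole lysates the median was -0.01 and in DS heavy polysomes 0.13. Lsm10, a subunit of the U7 particle that processes histone mRNAs (369 nucleotides), was at 15.2, 11.4 and 13.6 against 5.67, 6.17 and 5.93 CPM (-1.18 ± 0.23, adjusted p = 0.098, and -0.53 length-adjusted), a difference that was -1.07 without the libraries at both ends. Naa38, an LSm-fold subunit of an N-terminal acetyltransferase (378 nucleotides), differed by -1.05 (adjusted p = 0.098, and -0.49 length-adjusted). Snrpb, the Sm protein with a longer coding sequence (696 nucleotides), was at 60.8, 77.5 and 63.3 against 90.1, 85.7 and 96.3 CPM (0.43, adjusted p = 0.15, and 0.68 length-adjusted).

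Of 48 large spliceosomal and regulatory proteins 16 were higher and none lower, and of 47 heterogeneous nuclear ribonucleoproteins (hnRNPs) and neuronal RNA-binding proteins 20 were higher and 1 lower, Khdrbs3 (-0.39, adjusted p = 0.23). Their medians were 0.33 and 0.35, and 0.21 and 0.24 after the trend was removed. Length-adjusted, 18 and 15 were higher and 0 and 1 lower. Without the libraries at both ends 4 genes of each list were higher and 0 lower. Hnrnpa3, which packages nuclear RNA (1140 nucleotides), was at 212, 241 and 181 CPM in the wild-type and at 304, 320 and 441 CPM in the knockin (0.75 ± 0.18, adjusted p = 0.098), and Hnrnpc (921 nucleotides) was at 240, 308 and 189 against 375, 337 and 501 CPM (0.72 ± 0.19, adjusted p = 0.11). Prpf19, the ubiquitin ligase of the spliceosome (1515 nucleotides), differed by 0.79 (adjusted p = 0.098), and Sf3a2, of the U2 particle, by 0.99 (adjusted p = 0.098). In DS heavy polysomes the medians of both lists were -0.01 and -0.02.

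Of 18 histones with polyadenylated transcripts 7 were lower and none higher, with a median of -0.38. Length-adjusted, 0 were lower or higher and the median turned to 0.13, and without the libraries at both ends 1 was lower and 0 higher. H3f3a, which encodes the replacement histone H3.3 (411 nucleotides), was at 365, 367 and 371 CPM in the wild-type and at 310, 288 and 228 CPM in the knockin (-0.42, adjusted p = 0.15, and 0.12 length-adjusted), and Hist2h2be differed by -0.79 (adjusted p = 0.12, and -0.25 length-adjusted). Hmgn2, a nucleosome-binding protein (273 nucleotides), was at 364, 272 and 302 against 258, 188 and 139 CPM (-0.69, adjusted p = 0.11; 0.06 after removal of the trend), and Nap1l1, a histone chaperone (1176 nucleotides), differed by 0.60 (adjusted p = 0.11). Of 53 chromatin remodellers and histone methyltransferases, with a median coding length of 5748 nucleotides, 4 were higher and 1 lower. Length-adjusted, 1 was higher and 5 lower, and without the libraries at both ends 1 and 1. Setd1b, a histone H3 lysine methyltransferase (5958 nucleotides), was at 23.0, 15.6 and 26.6 against 36.5, 32.0 and 45.2 CPM (0.80 ± 0.21, adjusted p = 0.11), and the lower gene was Kmt2c, of the same enzyme class (14715 nucleotides), at 52.4, 41.4 and 56.8 against 39.0, 30.8 and 41.9 CPM (-0.43, adjusted p = 0.19; the genotypes overlapped).

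RNA polymerase II works with general factors, and the Mediator complex links them to activators. Of 47 polymerase and general factor genes 19 were lower and 11 higher. All 15 of up to 600 nucleotides were below 0, against 1723 of 1884 over all genes tested. Above 0 were 14 of the 16 over 1500 nucleotides, against 4666 of 6851. Length-adjusted, 3 of the list were lower and 5 higher, and without the libraries at both ends 5 and 4. Polr2k was at 76.0, 46.5 and 61.6 CPM in the wild-type and at 31.1, 36.2 and 14.4 CPM in the knockin (-1.17 ± 0.27, adjusted p = 0.098; -0.22 after removal of the trend), and Tceb2, elongin B (357 nucleotides), differed by -0.80 (adjusted p = 0.10, and -0.22 length-adjusted). Polr2a, the largest subunit (5913 nucleotides), differed by 0.20 ± 0.23 (adjusted p = 0.66), and Gtf2e1, of the initiation factor TFIIE (1323 nucleotides), by 0.74 (adjusted p = 0.11). Of 32 Mediator genes 9 were lower and 4 higher (2 and 4 length-adjusted, and 5 and 1 without the libraries at both ends). Med30 (537 nucleotides) was at 24.4, 15.5 and 9.20 against 7.26, 8.17 and 5.43 CPM (-1.23 ± 0.30, adjusted p = 0.099), Med29 (600 nucleotides) differed by -0.70 (adjusted p = 0.11, and -0.38 length-adjusted), and Med24 (2964 nucleotides) was at 39.4, 43.9 and 38.6 against 57.8, 51.7 and 80.6 CPM (0.64, adjusted p = 0.11).

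Of 49 nuclear pore and transport genes, 11 were higher and none lower (8 and 1 length-adjusted, and 3 and 0 without the libraries at both ends). Nup85, of the pore's outer ring, was at 18.4, 25.9 and 23.9 CPM in the wild-type and at 39.2, 33.3 and 50.2 CPM in the knockin (0.85 ± 0.20, adjusted p = 0.098), and Nupl1, of its central channel, at 27.8, 27.8 and 25.6 against 45.4, 44.5 and 55.5 CPM (0.84 ± 0.17, adjusted p = 0.098; 0.76 without the libraries at both ends). Of 31 activity-regulated transcription factors 10 were higher and 2 lower, and their median of 0.36 was 0.34 after the trend was removed; without the libraries at both ends 4 were higher and 0 lower. Jun, a component of the AP-1 factor (1005 nucleotides), was at 18.7, 20.4 and 17.4 against 38.4, 22.4 and 49.4 CPM (0.96 ± 0.24, adjusted p = 0.099). Fos and Fosb, its partners, differed by 0.64 (adjusted p = 0.23) and 0.33 (adjusted p = 0.40). Srf, the serum response factor that controls them (1515 nucleotides), was lower, at 89.5, 79.1 and 77.3 against 73.4, 54.7 and 48.3 CPM (-0.48, adjusted p = 0.15).

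Whole lysates of the same tissue gave few of these differences. The noncoding RNA Bc1 took 0.9% to 3.0% of reads in the heavy polysomal libraries of the Acb and 18.1% to 26.1% in the lysates. The lysate libraries held 9280589 to 18177175 reads, so smaller differences could be missed in them. There 1 of 15393 genes passed correction (0.0065%), and it was none of the listed genes; 19 listed genes were lower and 19 higher at an unadjusted p under 0.05, against 1.69% and 1.27% of all genes. The median log2 fold change of the 5 classes ran from -0.08 (glial) to 0.05 (cytoskeletal). Whether the difference in heavy polysomes exceeded that in lysates was tested as an interaction of genotype and fraction. None of 16687 genes passed correction in edgeR (0% called), DESeq2 and limma-voom also gave 0, 1028 were lower in heavy polysomes relative to lysates at an unadjusted p under 0.05 (6.16%) and 964 higher (5.78%), and the listed genes gave 126 and 153. Each gradient was loaded with the lysate sampled for the whole fraction, and with that lysate as a replicate block 106 genes passed (0.635%), 25 of them in the lists. Among these were Sec61g (difference of -1.13 between fractions, adjusted p = 0.0027 in the blocked edgeR fit), Tbca (-1.36, 0.00015), Tmsb4x (-1.12, 0.00024), Pcp4 (-1.05, 0.0014), Hap1 (1.07, 0.0014), Med30 (-1.98, 0.017) and Prpf19 (0.86, 0.033). Their differences without the block, in the main edgeR fit, had adjusted p-values of 0.22. With the block kept and the coding length trend removed, 32 genes passed. Heavy and lysate libraries of the same lysate deviated from their group means with correlations of only -0.03 to 0.08. The small spliceosomal list had 17 of 33 lower at an unadjusted p under 0.05 in the fit without the block and none higher.

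The DS heavy polysomes gave another pattern. There 7 of 15896 genes passed correction (0.044%), and 3 of them were listed genes: Mt2, a metallothionein, and Tmsb4x were higher in the knockin (0.98 and 0.97, adjusted p = 0.038 for both) and Myl4, a myosin light chain, was lower (-1.07, adjusted p = 0.038). In the Acb, Mt2 and Tmsb4x differed by -1.07 and -1.15. At an unadjusted p under 0.05, 49 listed genes were lower and 78 higher in the DS, against 2.72% and 3.7% of all genes. The interaction of genotype and region was called for 1 of 16880 genes (0.00592%), Ndufa3, which is in no list, and the listed genes gave 150 lower and 168 higher at an unadjusted p under 0.05 (7.49% and 6.33% of all genes). Tmsb4x differed by -1.15 in the Acb and by 0.97 in the DS (interaction -2.11, adjusted p = 0.052), Pcp4 by -1.14 and 0.85 (-1.98, adjusted p = 0.052), and Polr2k by -1.17 and 0.49 (-1.65, adjusted p = 0.09). By class, the interaction was lower for 28 and higher for 3 of 172 genes of the glial class, and lower for 15 and higher for 54 of 223 cytoskeletal genes. It was lower for 19 and higher for 30 of 333 neuronal genes, for 40 and 31 of 287 secretory genes, and for 49 and 52 of 386 nuclear genes. These counts are not length-adjusted.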

How the data were processed

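Poly-A RNA of heavy polysomal fractions and whole lysates was sequenced with a stranded kit. Per the submitters' processing notes and the study's methods, the authors aligned reads to mm10 with TopHat2 2.0.13 and Bowtie2 2.2.3 and counted reads per gene with HTSeq 0.6.1p1 (CASAVA 1.8.2 and FastQC before it). The deposited table holds raw counts per gene, with runs of a library summed. From these counts, edgeR 4.0.16 (quasi-likelihood test, TMM) was fitted in R 4.3.3 to genes whose reads across the compared libraries totalled at least 15, with Benjamini-Hochberg adjustment at 0.05. CPM uses the effective library sizes. Acb heavy polysomal libraries held 14948045 to 34703044 reads, Acb lysates 9280589 to 18177175 and DS heavy polysomal libraries 11109431 to 27128209, which limits genes of a few CPM most. Libraries were grouped by GEO's labels; nothing states that pools shared no animals or preparation, so p-values measure the spread between these 3 pools per genotype. Interactions were fitted over 12 libraries.

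Coding lengths (20418 genes) came from GENCODE M21, taking the principal, then the consensus, then the longest coding sequence. The length trend was a loess curve (span 0.5) fitted to each library and used as an offset. Reads were counted by strand. Named genes are, per list and among genes with a mean of at least 50 reads, the 2 lowest p-values in the commoner direction, the lowest in the other and the first 2 symbols, plus the 5 lowest p-values over all other genes in each direction (without overlap). The lists and members were chosen with earlier results of these data known. Of 1404 symbols written, 1398 matched, 8 by synonym. Folr1, Kcne2, Aqp1, F5, Ppp1r1b, Mt2 and Myl4 were named after their values were seen.

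Fits were tested on simulated data, drawn with the same spread for every gene and without a coding length trend. That simulation does not show how the fits behave with the trend seen here. Alternatives were DESeq2 1.42.0, limma-voom (limma 3.58.1), other size factors, filters, the length trend, a replicate block and leaving out libraries. Per the study's methods, heavy and lysate libraries of a genotype and number come from the same lysate, and their deviations from the group means correlated at -0.03 to 0.08 over 12033 genes. Some genes that the naming rule picked are not reported here.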

Additional observations from a re-analysis of the deposited data

Results flagged for a closer look

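The effect of genotype on Ndufa3, a complex I subunit with a coding sequence of 255 nucleotides that is in none of the lists, differed between regions. The log2 fold change was -1.17 in Acb heavy polysomes (adjusted p = 0.098, edgeR) and 0.97 in DS heavy polysomes (adjusted p = 0.048), and the difference of -2.12 ± 0.34 passed the interaction test (adjusted p = 0.022, edgeR). After the coding length trend was removed the difference was -1.16, with an adjusted p of 0.062.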

How the results depend on the processing

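In Acb heavy polysomes 0 genes passed an adjusted p of 0.05, as with DESeq2's size factors, the filterByExpr filter, limma-voom and the bias-adjusted test; 549 passed with no filter beyond 1 read, 1090 with DESeq2's Wald test, 4 with the coding length trend removed, 98 with a replicate block by number and 6 with that replicate block and the trend removed. Same-numbered wild-type and knockin heavy libraries deviated from their group means with correlations of 0.29, -0.27 and -0.07 over 12477 genes, so the numbers were not taken to pair them. Leaving out 1 library gave 0 to 3, and leaving out wild-type replicate 1 with knockin replicate 3 gave 0. The count at an unadjusted p under 0.05 was 3518; it was 2165 with the replicate block and the trend removed, 968 without wild-type replicate 1 and knockin replicate 3 (an alternative chosen after seeing the data), and 1747 to 4191 when 1 library was left out, with 1747 without knockin replicate 3 and 1979 without wild-type replicate 1. For Acb lysates the count was 1; it was 0 with filterByExpr, 2 with no filter or the bias-adjusted test, 5 with limma-voom or the replicate block, 3 with the replicate block and the trend removed, and 0 to 3 when 1 library was left out. For DS heavy polysomes it was 7; it was 1 with filterByExpr, 37 with no filter, 17 with DESeq2, 15 with limma-voom, 12 with the trend removed, 31 with the replicate block, 22 with both, and 0 to 29 when 1 library was left out. The interaction of genotype and fraction gave 0; it gave 107 with no filter, 106 with the replicate block, 32 with the replicate block and the trend removed, and 0 to 81 when 1 library was left out, with 81 without knockin heavy replicate 1. The interaction of genotype and region gave 1; it gave 0 with filterByExpr, 353 with no filter, 236 with DESeq2, 19 with limma-voom, 46 with the bias-adjusted test, 4 with the trend removed, 479 with the replicate block, 215 with both, and 0 to 183 when 1 library was left out. The causes were not tested.

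Of the 41 list medians, 14 changed sign when the coding length trend was removed and 6 without wild-type replicate 1 and knockin replicate 3. Among named genes, removal of the trend turned Vamp2 to 0.094, Slc17a7 to -0.020, Tmsb10 to 0.21, H3f3a to 0.12 and Hmgn2 to 0.058, and with the replicate block as well Vamp2 to 0.11, Nrn1 to 0.0053, Tmsb4x to 0.0077, Tmsb10 to 0.20, H3f3a to 0.12 and Hmgn2 to 0.056. Without the libraries at both ends Drd2 was at 0.016, Penk at -0.045, Nrn1 at 0.044, Cx3cr1 at -0.067 and Sec61a1 at -0.0072. Leaving out 1 library gave -0.15 to 0.82 for Slc17a7, -0.0076 to 0.15 for Cx3cr1 and -0.0066 to 0.16 for Rps6.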

Other observations

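Outside the lists and outside the mitochondrial and ribosomal families, the genes with the lowest p in Acb heavy polysomes included the following, with adjusted p-values from edgeR. Acer2, an alkaline ceramidase of the Golgi (828 nucleotides), was at 19.7, 19.8 and 27.4 CPM in the wild-type and at 8.57, 7.07 and 2.35 CPM in the knockin (log2 fold change -1.89 ± 0.33, adjusted p = 0.098). It differed by -1.57 in whole lysates and by -1.59 in DS heavy polysomes, so the sign was the same in each set of libraries. The part of the edited locus and of the mixed background in this difference was not tested. Cxx1a (342 nucleotides) differed by -1.06 in Acb heavy polysomes, with 31.0, 21.4 and 27.7 against 14.6, 12.7 and 11.3 CPM, by -0.31 in lysates and by -0.27 in DS heavy polysomes. C630043F03Rik, for which no coding length was found, differed by -1.18 in Acb heavy polysomes, -1.002 in lysates and 0.68 in DS heavy polysomes.

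Among higher genes, Dgkq, a diacylglycerol kinase (2805 nucleotides), was at 11.8, 12.3 and 15.6 CPM in the wild-type and at 27.4, 24.2 and 32.6 CPM in the knockin (1.08 ± 0.20, adjusted p = 0.098), with -0.32 in lysates. Ccdc22, a subunit of the complex that recycles endosomal cargo (1884 nucleotides), was at 6.54, 8.68 and 5.96 against 12.8, 14.9 and 23.1 CPM (1.27 ± 0.26, adjusted p = 0.098), with -0.38 in lysates. For both, the difference between fractions passed correction in the fit with the lysate as a block (adjusted p = 0.017 and 0.030, edgeR). In the main fit, without the block, 0 of 16687 genes passed.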
